A study of Mus musculus with 43 samples.

Results

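A set of 10 genes of the pluripotency network was described here by the histone marks found over them in mouse embryonic fibroblasts (MEFs). The members, Pou5f1, Nanog, Sox2, Zfp42, Esrrb, Tdgf1, Dppa4, Prdm14, Lin28a and Klf4, were taken by name, and all 10 of 10 were found among the 20807 protein-coding genes on the 19 autosomes of mm10. The series has 43 chromatin immunoprecipitation (ChIP) and whole cell extract libraries, from 3 kinds of E13.5 MEFs. Female cells were Setdb1+/+ and Xist∆A/+ and carried a non-silencing hairpin (female). The Setdb1 depleted cells were female, Setdb1+/gt and Xist∆A/+, and their labels give a hairpin against Setdb1. Male cells were Setdb1+/+ and X/Y and carried the non-silencing hairpin (male). All came from crosses of 129/C57 dams with CAST sires, and all had gone through retroviral transduction with polybrene and selection with puromycin, so no untransduced cells are included. The gt allele is a gene trap in an intron of Setdb1, present on 1 of the 2 copies, and the Xist∆A allele sets which X is silenced, whereas all 10 genes are autosomal. Each mark was run in 3 female, 2 Setdb1 depleted and 3 male libraries, which the authors pooled, so that every target has a single set of peaks for each kind of cell.

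Pou5f1, Sox2 and Nanog encode the transcription factors at the centre of the network that keeps embryonic stem cells pluripotent, and Esrrb, Klf4, Prdm14 and Zfp42 encode further DNA-binding factors of that network. Somatic cells such as fibroblasts keep most of these genes silent. H3K27me3 is the mark laid down by Polycomb repressive complex 2 over silent developmental genes, often across many kilobases. H3K9me3 and H3K9me2 mark heterochromatin, and Setdb1 is an enzyme that trimethylates H3K9.

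Of the 3 marks, only H3K27me3 covered the start of any of the 10 genes in these lists. The annotated start lay inside an H3K27me3 peak for 5 of the 10 genes in female cells (Pou5f1, Sox2, Esrrb, Prdm14 and Lin28a), for 6 with Setdb1 depleted (the same 5 and Tdgf1) and for the same 5 in the male list. The starts of Nanog, Zfp42, Dppa4 and Klf4 were outside H3K27me3 in all 3 lists. No start was inside an H3K9me3 or H3K9me2 peak in any list, and no Setdb1 peak lay within 20 kb of any of the 10 genes. The shares of all genes were also low, at most 2.95% for H3K9me3, 1.17% for H3K9me2 and 9.74% for Setdb1. These absences are therefore not a result about the 10 genes. Across all autosomal protein-coding genes the share with the start inside an H3K27me3 peak was 20.4%, 18.1% and 18.4% in the female, Setdb1 depleted and male lists. All of these are single values from pooled lists, so no difference between kinds of cells can be set against a spread between replicates, and no test between them was made. The lists also do not separate the CAST allele from the maternal one, or a mark in all cells from one in some of them.

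Promoter sequences are shown for 6 genes to set the starts inside H3K27me3 next to those outside. Each is the 250 bases before a RefSeq start on GRCm38.p6, the assembly of mm10, from 5′ to 3′ on the gene's own strand, and the capitals mark CpG dinucleotides. Sox2 and Klf4 are the CpG-rich pair, Pou5f1 and Nanog are core factors of unlike state, Tdgf1 is the gene whose start was inside a peak in 1 list, and Zfp42 is the gene with H3K9me3 nearby.
Sox2 (chr3:34649745-34649994, + strand): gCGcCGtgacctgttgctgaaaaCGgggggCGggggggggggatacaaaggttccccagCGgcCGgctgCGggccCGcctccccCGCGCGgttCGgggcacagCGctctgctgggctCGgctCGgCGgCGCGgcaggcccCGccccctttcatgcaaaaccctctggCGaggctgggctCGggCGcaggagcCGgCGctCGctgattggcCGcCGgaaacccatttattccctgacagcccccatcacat
Klf4 (chr4:55532476-55532725, - strand): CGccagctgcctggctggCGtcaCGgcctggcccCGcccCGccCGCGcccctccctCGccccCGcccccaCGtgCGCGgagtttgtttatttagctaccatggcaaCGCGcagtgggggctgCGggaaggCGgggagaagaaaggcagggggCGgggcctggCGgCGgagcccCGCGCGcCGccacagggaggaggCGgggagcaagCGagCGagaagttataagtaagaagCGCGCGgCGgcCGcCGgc
Pou5f1 (chr17:35505782-35506031, + strand): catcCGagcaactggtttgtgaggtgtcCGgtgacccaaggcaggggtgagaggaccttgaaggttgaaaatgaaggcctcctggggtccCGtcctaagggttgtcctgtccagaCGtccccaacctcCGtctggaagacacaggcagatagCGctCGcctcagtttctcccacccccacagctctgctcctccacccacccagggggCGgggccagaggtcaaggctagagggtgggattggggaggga
Nanog (chr6:122707239-122707488, + strand): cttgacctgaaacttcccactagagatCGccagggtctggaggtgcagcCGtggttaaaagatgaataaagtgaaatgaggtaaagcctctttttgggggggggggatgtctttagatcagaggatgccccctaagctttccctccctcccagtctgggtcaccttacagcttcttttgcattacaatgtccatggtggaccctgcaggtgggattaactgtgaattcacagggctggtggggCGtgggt
Tdgf1 (chr9:110946159-110946408, - strand): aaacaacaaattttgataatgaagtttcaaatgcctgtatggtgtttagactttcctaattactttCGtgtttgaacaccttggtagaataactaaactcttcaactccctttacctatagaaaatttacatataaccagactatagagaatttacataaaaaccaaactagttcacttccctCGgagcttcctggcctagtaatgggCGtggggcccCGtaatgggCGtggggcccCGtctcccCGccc
Zfp42 (chr8:43307010-43307259, - strand): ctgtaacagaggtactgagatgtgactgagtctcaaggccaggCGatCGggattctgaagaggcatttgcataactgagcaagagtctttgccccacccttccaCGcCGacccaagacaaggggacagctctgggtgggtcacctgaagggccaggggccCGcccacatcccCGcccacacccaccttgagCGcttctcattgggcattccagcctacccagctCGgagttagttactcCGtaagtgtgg

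Sox2 and Klf4 were alike in CpG content and lay on opposite sides, inside and outside H3K27me3. The stretch before the Sox2 start holds 27 CpGs and that before Klf4 holds 32, against a median of 6 over 31396 autosomal RefSeq promoters. Sox2 was inside H3K27me3 in all 3 lists, whereas Klf4 was outside in all 3. Pou5f1 has 8 CpGs at the start shown and 6 at its other RefSeq start, and was inside. Nanog has 3 and 2, and was outside. Zfp42 has 9 and was outside, and Tdgf1 has 7 and was inside in 1 list. Lin28a has 7, Esrrb has 6 and 3 at its RefSeq starts, and both genes were inside. The CpG ratio, which is the number of CpGs over that expected from the C and G content, was then taken over 500 bases on each side of the GENCODE start. It was 0.959 at Sox2 and 0.96 at Klf4. Among the other genes inside H3K27me3 in all 3 lists it was 0.283 at Esrrb, 0.332 at Pou5f1, 0.384 at Lin28a and 0.504 at Prdm14. It was 0.602 at Tdgf1, 0.503 at Zfp42, 0.387 at Dppa4 and 0.303 at Nanog. A ratio of at least 0.6 was found at 3 of the 10 genes and at 47.2% of all genes. The median over all genes was 0.571 for the 2634 with the start inside H3K27me3 in all 3 lists, which are 12.7% of genes, and 0.586 for the 15575 outside in all 3, which are 74.9%. The octamer ATGCAAAT is a sequence that POU factors such as the product of Pou5f1 recognise. Exact copies of it were searched on both strands of the 300 bases from 250 before to 50 after each RefSeq start. The octamer was found in 1 of the 11 windows of the 8 members that have an entry, that of Zfp42, and in 1.75% of all autosomal windows. Variants of the octamer were not searched, so a window without it is not shown to lack a site for these factors.

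**Figure D1:**
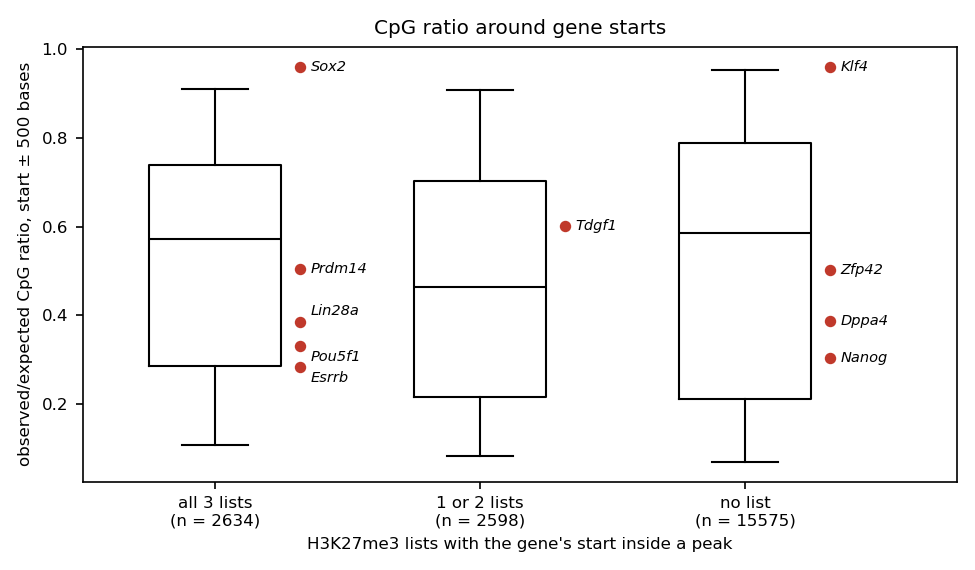
CpG ratio over 500 bases on each side of the start (vertical axis, no unit) for all autosomal protein-coding genes, by the number of H3K27me3 lists with the start inside a peak (horizontal axis). Boxes give the quartiles and the median, whiskers the 5th and 95th percentiles, and red points the 10 pluripotency genes; Sox2 (0.959, all 3 lists) and Klf4 (0.96, no list) lie at the same height in the outer groups.

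The core factors of the network differed in their chromatin. Pou5f1, which encodes the POU factor Oct4 (ENSMUSG00000024406.16, chr17:35506018-35510772, + strand), lay whole inside a peak at chr17:35370001-35515000 in female cells. The edges were identical in Setdb1 depleted cells, and the male peak ran from 35375001 to 35515000. Widths were therefore 145, 145 and 140 kb in the female, Setdb1 depleted and male lists, nearly all of it upstream, with 8.98 kb past the start in each list. In the female list it touches a further peak upstream, and with touching peaks joined the width there is 265 kb, whereas in the other lists a gap of 1 step of 5 kb keeps those peaks apart. The start of 4 other protein-coding genes lies inside the female peak, which overlaps the major histocompatibility genes H2-Q4, H2-Q6, H2-Q7 and H2-Q10 as well as Tcf19. The H2-Q genes are close copies of each other, so the placement of reads there is uncertain. This was also the only member with an H3K9me3 peak inside its H3K27me3 peak. In female cells a 35 kb H3K9me3 peak overlapped the far end by 10 kb, 126 kb upstream of the start, and in Setdb1 depleted cells a 35 kb peak lay wholly inside, 61 kb upstream, while male cells had none. The H3K9me3 antibody is described in the study's methods as binding H3K27me3 weakly as well. The authors thought this unlikely to bear on their results, because the marks had distinct patterns across the genome. The part of such binding in these peaks was not tested.

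Sox2 (ENSMUSG00000074637.7, chr3:34650405-34652461, + strand), a partner factor of Oct4, sat near the middle of a domain that held no other protein-coding gene. The peak spanned chr3:34620001-34685000 in female and in male cells and ended at 34690000 in Setdb1 depleted cells, which makes widths of 65, 65 and 70 kb. It reached 30.4 kb upstream of the start in each list. The lists place edges in steps of 5 kb, so the difference at Sox2 is 1 step.

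Nanog (ENSMUSG00000012396.12, chr6:122707489-122714633, + strand), the homeobox factor of the network, was not covered by any of the 3 marks. A peak of H3K27me3 lay 37.5 kb upstream of the start in all 3 lists, 25 kb wide in female and male cells and 20 kb in Setdb1 depleted cells. Downstream, female cells had a 15 kb peak that began 7.51 kb after the start, just past the end of the gene, and Setdb1 depleted cells had a 15 kb peak that began 27.5 kb after it. Male cells had no downstream peak within 50 kb. Both annotated RefSeq starts of Nanog were outside H3K27me3 in all 3 lists.

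Among the other DNA-binding factors, Esrrb and Prdm14 kept exactly the same peak at the start in all 3 lists, and the peaks around it varied. Esrrb (ENSMUSG00000021255.17, chr12:86361117-86521628, + strand) encodes an orphan nuclear receptor. Its start lay in a 50 kb peak at chr12:86340001-86390000 in female, Setdb1 depleted and male cells alike, and a 40 kb peak that began 38.9 kb inside the gene also had the same edges in all 3. That further peak holds the other RefSeq start of the gene. The female list alone had a 30 kb peak touching the first on its upstream side, which makes 80 kb when joined. The share of the Esrrb gene body under H3K27me3 was 49.1%, 42.9% and 52.3% in the female, Setdb1 depleted and male lists.

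Prdm14 (ENSMUSG00000042414.7, chr1:13113457-13127163, - strand), a PR domain protein also used by primordial germ cells, was covered whole by a 35 kb peak at chr1:13105001-13140000 in each list. A touching peak past the end of the gene was 20 kb wide in female and 15 kb in male cells, and none touched it in Setdb1 depleted cells. With touching peaks joined the widths were 55 kb, 35 kb and 50 kb in the female, Setdb1 depleted and male lists. The female peak at the start also overlaps Ncoa2, a nuclear receptor coactivator gene, but not its start.

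Klf4 (ENSMUSG00000003032.8, chr4:55527143-55532466, - strand) and Zfp42 (ENSMUSG00000051176.6, chr8:43295063-43306980, - strand) were outside H3K27me3. Klf4 is a Krüppel-like factor that many somatic cells express as well. Its nearest H3K27me3 peak in female cells was 25 kb wide and lay 27.5 kb downstream of the start, and no peak reached within 50 kb of the gene in Setdb1 depleted or male cells. Zfp42, known as Rex1, is a zinc finger gene used as a marker of naive stem cells, and was the only member with H3K9me3 within 50 kb. The 10 kb H3K9me3 peak was 3.02 kb upstream of the start in female cells and 8.02 kb upstream in male cells. In Setdb1 depleted cells the window held none, and the nearest H3K9me3 peak was 1270 kb from the start. These 10 kb peaks have the smallest width in the lists. The H3K9me3 list is also shorter in Setdb1 depleted cells, with 3467 autosomal peaks against 5820 in female and 5217 in male cells.

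The genes that encode RNA-binding, signalling and chromatin proteins were split as well. Lin28a (ENSMUSG00000050966.9, chr4:134003330-134018841, - strand), which encodes a protein that blocks the maturation of let-7 microRNAs, was in a peak of 100, 90 and 95 kb in the female, Setdb1 depleted and male lists. The female peak, at chr4:134000001-134100000, also overlaps Dhdds, Zfp683, Crybg2 and Cd52 and holds the starts of these 4 genes. In Setdb1 depleted cells a touching 10 kb peak completed the same 100 kb.

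Tdgf1 (ENSMUSG00000032494.12, chr9:110939603-110946158, - strand), also named Cripto, encodes a co-receptor for Nodal signals and was the only member whose start was inside a peak in some lists and outside in others. In Setdb1 depleted cells a 20 kb peak at chr9:110940001-110960000 covered the start and 93.9% of the gene. In female cells no H3K27me3 peak lay within 50 kb of the gene. In male cells, which are Setdb1 wild-type as well, a 35 kb peak began 11.2 kb after the start, past the end of the gene. Dppa4 (ENSMUSG00000058550.15, chr16:48283733-48294237, + strand), which encodes a chromatin protein of early embryos, had no peak of any of the 3 marks within 50 kb in any list.

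**Figure D2:**
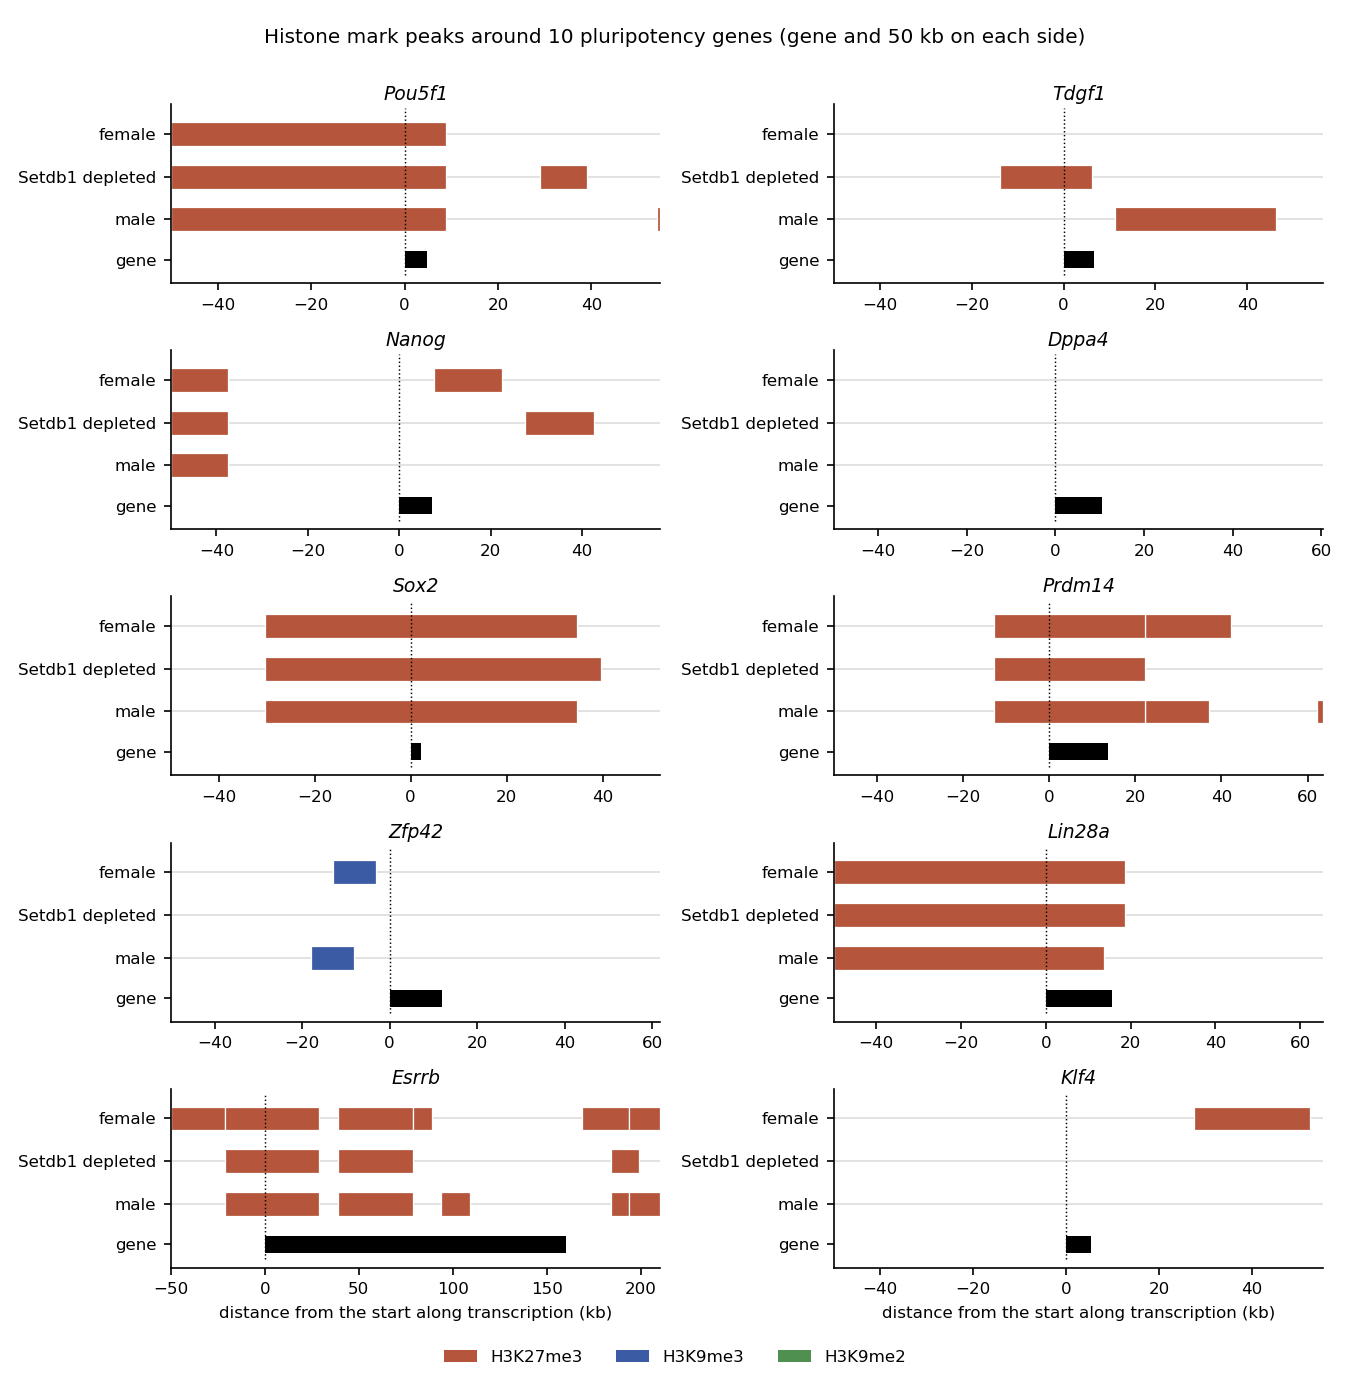
Peaks of H3K27me3, H3K9me3 and H3K9me2 over each gene and 50 kb on each side, with the distance from the gene's start in kb along the direction of transcription on the horizontal axis and 1 row per kind of cell; the black bar is the gene, the dotted line its start, and white lines divide touching peaks. Pou5f1, Sox2, Esrrb, Prdm14 and Lin28a have their start inside H3K27me3 in every row, Tdgf1 in the Setdb1 depleted row, and no H3K9me2 peak appears.

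Taken over the gene and 50 kb on each side, H3K27me3 covered a larger share at the median pluripotency gene than at the median of all genes. The median covered share of the 10 genes was 37.0%, 28.2% and 39.1% in the female, Setdb1 depleted and male lists, next to medians of 7.37%, 2.25% and 3.61% over all genes. Peaks reached within 50 kb of 7 of the 10 genes in each list, and of 56.1%, 51.4% and 52.3% of all genes in the female, Setdb1 depleted and male lists. The 7 genes were not the same in each list. Klf4 was among them in the female list only, and Tdgf1 in the Setdb1 depleted and male lists only. The mean covered share of the 10 genes was 34.3%, 31.0% and 31.6% in the same order. Over all genes it was 17.3%, 14.5% and 15.8%, so the contrast is smaller by the mean than by the median. By the mean the female list covers the most in both sets, whereas the median of the 10 genes was highest in the male list.

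Setdb1 depleted cells differed from female cells in both directions across the 10 genes. The covered share was lower at 3 (Esrrb, Prdm14 and Klf4), equal at 4 (Nanog, Lin28a, and Zfp42 and Dppa4 at 0% in both lists) and higher at 3 (Pou5f1, Sox2 and Tdgf1). Of the 12976 genes with H3K27me3 in either list, 52.6% were lower, 23.9% equal and 23.5% higher, with a median difference of -2.04 percentage points, while of the 8 members with the mark in either list 3 were lower, 2 equal and 3 higher. Male cells against female cells gave 5 lower, 1 equal and 2 higher among the members with the mark, next to 44.4%, 26.6% and 29.0% of 13082 genes, with a median difference of 0. The lower values were those of Esrrb, with 65.5%, 40.3% and 50.5% in the female, Setdb1 depleted and male lists, of Prdm14, with 48.4%, 30.8% and 45.3%, and of Klf4, with 23.7%, 0% and 0%. Each of these was also lower in male than in female cells, by 14.9 percentage points at Esrrb, 3.04 at Prdm14 and 23.7 at Klf4 against 25.1, 17.6 and 23.7 for Setdb1 depleted cells. The higher values were those of Pou5f1, with 56.3%, 65.9% and 57.0% in the female, Setdb1 depleted and male lists, of Sox2, with 63.7%, 68.6% and 63.7%, and of Tdgf1, with 0%, 18.8% and 32.8%. What Setdb1 depleted cells had more of at Pou5f1 was a separate 10 kb peak 29.0 kb after the start. Nanog had 25.7%, 25.7% and 11.7% in the same order, and Lin28a had 59.6%, 59.6% and 55.3%. Over the same sets of all genes, the median of the absolute difference from female cells was 6.84 percentage points for Setdb1 depleted and 6.24 for male cells, which like female cells are Setdb1 wild-type.

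**Figure D3:**
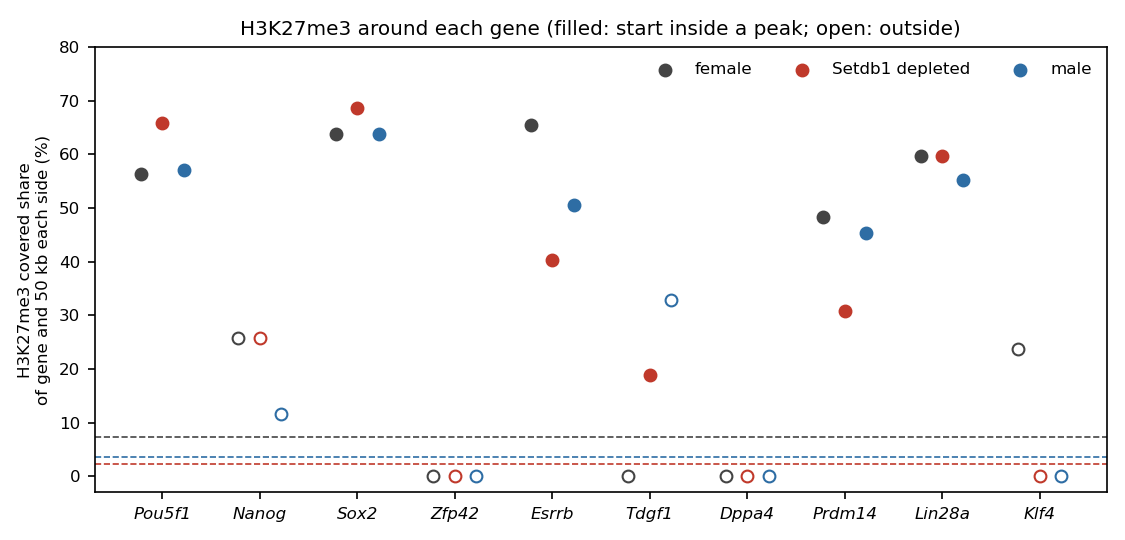
H3K27me3 covered share of each gene and 50 kb on each side (vertical axis, percent) for the 10 genes (horizontal axis) in female (grey), Setdb1 depleted (red) and male (blue) cells, 1 pooled value each. Filled points have the start inside a peak, open points outside, and dashed lines give the median of all genes (7.37%, 2.25% and 3.61%); Setdb1 depleted cells are the lowest of the 3 at Esrrb and Prdm14 and the highest at Pou5f1 and Sox2.

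Where the start of a member was inside H3K27me3 in female cells, it was inside in the other lists too. This held for 5 of 5 members in Setdb1 depleted and 5 of 5 in male cells, next to 74.5% and 73.8% of the 4249 genes inside in female cells. With only 5 genes, these counts are not set apart from those shares. These 5 female peaks had a median width of 65 kb, against 45 kb for the 3167 genes inside in female and Setdb1 depleted cells. Of the 5 members outside in female cells, 1 (Tdgf1) was inside with Setdb1 depleted and 0 in the male list, next to 3.6% and 4.2% of the 16558 genes outside in female cells. The peak at the start had the same width in Setdb1 depleted as in female cells at 3 of the 5 genes (Pou5f1, Esrrb and Prdm14, with identical edges), was narrower at Lin28a and wider at Sox2. Over the 3167 genes inside in both lists, 47.7% had a narrower peak in Setdb1 depleted cells, 42.2% an equal and 10.0% a wider one, and the medians were 40 kb in Setdb1 depleted and 45 kb in female cells. In male cells 3 of the 5 genes had identical edges to female cells (Sox2, Esrrb and Prdm14) and 2 were narrower (Pou5f1 and Lin28a), and over 3136 genes 30.5% were narrower, 48.8% equal and 20.7% wider. With touching peaks joined, 3 members were narrower in Setdb1 depleted than in female cells (Pou5f1, Esrrb and Prdm14), 1 equal (Lin28a) and 1 wider (Sox2), next to 47.2%, 41.8% and 11.1% of all genes. In male cells 4 members were then narrower and 1 equal, next to 32.5% and 46.8% of all genes. Total H3 reads, which the authors used as the control for the marks, were alike in the 3 pools at these peaks. The range of the 3 log2 values was between 0.02 and 0.24 over the 16 combinations of gene and list, with a median of 0.06, against a median of 0.12 over all autosomal H3K27me3 peaks of the female list. These combinations repeat the same genes over the same or similar peaks, so they are not independent. Most of the peaks are also wider than the female list's median of 25 kb. The authors had already scaled the values to the deepest pool.

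H3K9 methylation and Setdb1 were absent from the lists at these genes, which is close to what the lists hold in general. The start was inside H3K9me3 for 2.92%, 2.48% and 2.95% of all genes in the female, Setdb1 depleted and male lists, and inside H3K9me2 for 0.918%, 0.697% and 1.17%. The counts of 0 of 10 are near these shares and are not a result about the 10 genes. An H3K9me3 peak within 50 kb was found for 1, 0 and 1 of the 10 genes (Zfp42) and for 23.4%, 14.0% and 20.5% of all genes. For H3K9me2 the counts were 0, 0 and 0, and the shares of all genes were 6.88%, 5.14% and 6.8%. The nearest H3K9me2 peak to any of the 10 starts was 77.8 kb away, at Prdm14 in Setdb1 depleted cells. Setdb1 peaks were found within 20 kb of 0 of the 10 genes in each list, and of 4.07%, 1.33% and 9.74% of all genes in the female, Setdb1 depleted and male lists. The nearest Setdb1 peak to any of the 10 genes was 221 kb away in female cells (Zfp42), 144 kb in Setdb1 depleted cells (Pou5f1) and 75.3 kb in male cells (Lin28a). These lists hold 1250, 418 and 3310 Setdb1 peaks, of which 1104, 337 and 3113 are autosomal. They come from 18134299, 14405821 and 12320583 ChIP reads that entered the calls. A gene with no peak nearby is not shown to be free of Setdb1. The lists hold no RNA or protein values, so neither the depletion of Setdb1 nor the silence of the 10 genes was checked here.

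A wider list of 32 genes used in naive, primed or early germ cells was read in the same way. It was chosen with earlier results of these data known, so it is not independent support. The list was compared with all genes only, and other developmental genes were not set beside it. The start was inside H3K27me3 for 20, 20 and 18 genes in the female, Setdb1 depleted and male lists, which are 62.5%, 62.5% and 56.2% of the list, and 16 were inside in all 3 lists, next to 12.7% of all genes. As at the 10 genes, 0 of the 32 starts were inside H3K9me3 or H3K9me2 in any list. This is near the shares of all genes, at most 2.95% for H3K9me3 and 1.17% for H3K9me2. The widest female peaks were at Fgf4, a growth factor gene of the inner cell mass (145 kb, 150 kb and 105 kb in the female, Setdb1 depleted and male lists), Zic2, a zinc finger gene of primed cells (120, 125 and 120 kb), and Gbx2, a homeobox gene (110, 100 and 110 kb). Next came Otx2, a homeobox gene of primed cells and forebrain (95, 90 and 90 kb), Utf1, a chromatin factor gene of stem cells (70, 75 and 75 kb), and Nr5a2, a nuclear receptor gene (60, 40 and 60 kb). The peak at Lin28b, the paralogue of Lin28a, was 55 kb in each list, that at Tbx3, a T-box gene, was 40, 40 and 30 kb, and those at Sall4 and Lefty1 were 35 kb in female cells. Lefty2, which like Lefty1 encodes an inhibitor of Nodal, had 35 kb in female and 20 kb in Setdb1 depleted cells, and its start was outside in male cells. Between female and Setdb1 depleted cells the state of the start differed at 4 of the 32 genes, next to 8.06% of all genes. Between female and male cells it differed at 6 of the 32, next to 8.69% of all genes. These shares are not matched to the list, because 20 of its 32 starts were inside in female cells, against 20.4% of all genes. Of all genes inside in female cells, 74.5% were also inside in Setdb1 depleted and 73.8% in male cells. Of those outside, 3.6% and 4.2% were inside in these lists. The counts of 4 and 6 are therefore not read as more change than at other genes. The 4 genes are given as a description. Dppa3, a germ cell gene, and Dnmt3l, a cofactor of DNA methyltransferases, were inside in Setdb1 depleted but not in female cells, in peaks of 15 kb and 20 kb. Fbxo15, an F-box gene, and L1td1, a gene derived from a LINE-1 element, were inside in female but not in Setdb1 depleted cells, in peaks of 55 kb and 20 kb. In male cells Dnmt3l was inside as in Setdb1 depleted cells, Fbxo15 and L1td1 were outside as in Setdb1 depleted cells, and Dppa3 was outside as in female cells. Setdb1 peaks lay within 20 kb of 1, 0 and 2 of the 32 genes, next to the 4.07%, 1.33% and 9.74% of all genes given above.

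The labelled cell type was set beside 18 fibroblast genes such as Col1a1, Vim and Pdgfra. These genes are known to be active in fibroblasts, and 0 of 18 starts were inside a peak of any of the 3 marks in any of the 9 lists. For H3K27me3 this stands next to 20.4%, 18.1% and 18.4% of all genes, whereas for the H3K9 marks a count of 0 is near the share of all genes. H3K27me3 came within 50 kb of 7, 6 and 8 of the 18, next to 56.1%, 51.4% and 52.3% of all genes, with a median covered share of 0% in each kind of cell. H3K9me3 came within 50 kb of 4, 1 and 3 of them in the female, Setdb1 depleted and male lists. The shares of all genes were 23.4%, 14.0% and 20.5%. For H3K9me2 the counts were 3, 2 and 3 of the 18, next to 6.88%, 5.14% and 6.8% of all genes. Setdb1 peaks lay within 20 kb of 2, 0 and 4 of the 18, next to 4.07%, 1.33% and 9.74% of all genes. The labels' extraction protocol names another cell type (NSCs), whereas titles and tissue give MEFs.

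**Figure D4:**
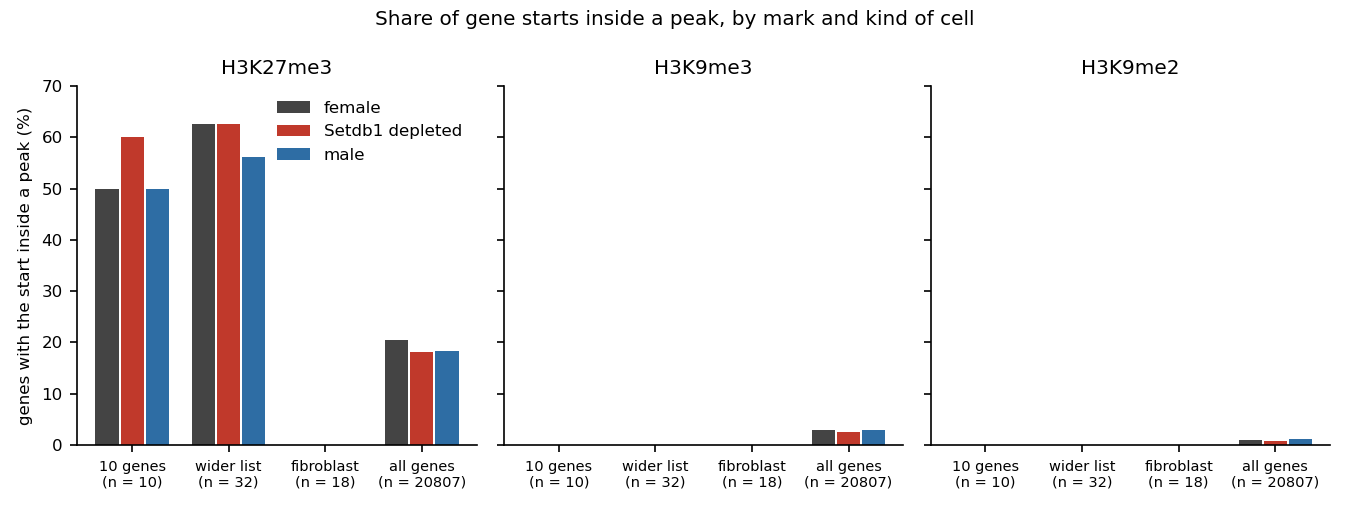
Share of genes whose start lies inside a peak (vertical axis, percent, from 0) for the 10 pluripotency genes, the wider list of 32, the 18 fibroblast genes and all 20807 genes (horizontal axis), in female (grey), Setdb1 depleted (red) and male (blue) cells, 1 panel per mark. In the H3K27me3 panel the 10 genes stand at 50%, 60% and 50% and all genes at 20.4%, 18.1% and 18.4%; the fibroblast genes are at 0 in each panel.

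The genes most like each member were found from the 9 covered shares (3 marks in 3 kinds of cells), as those with the smallest Euclidean distance, in percentage points, over 1 Mb away. For Lin28a they were Sfrp5, an inhibitor of Wnt signals, and Kif26a, a kinesin family gene (0.393 and 0.526). For Sox2 they were P2rx6, a gated ion channel gene, and Foxi3, a forkhead gene (1.49 and 1.7). Prdm14 was nearest to Igfbp2, an insulin-like growth factor binding protein gene (1.69), and to Akain1 (2.69), and Esrrb to Frrs1l (3.12) and Cbln1 (4.78). Pou5f1 was nearest to Sigirr (3.78) and Cenpm (3.96), and Nanog to Prr15l (2.59) and Etv5 (2.79). Zfp42 was nearest to Ms4a6c (0.102) and Cptp (0.113), and Klf4 to AC134908.4 (0.037) and Wdr24 (0.0497). In these last windows 2 of the 9 shares were above 0 at Zfp42 and 1 of 9 at Klf4.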

How the data were processed

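ChIP-seq was run for H3K27me3, H3K9me3, H3K9me2, Setdb1 and total H3 in 3 kinds of MEFs, and 12 lists of peaks were used, a single list for each target in each kind of cell. The authors aligned reads with Bowtie2 to mm10 and pooled the libraries of each group. Histone peaks were made by the authors in Seqmonk 0.29.0 with 10 kb fragments, p under 1e-05 and H3 as the control. They have edges on a 5 kb grid, a width of at least 10 kb and no score for the mark. These deposited lists give log2 H3 reads per pool, scaled by the authors to the deepest pool. For Setdb1 the authors ran MACS2 2.1.0.20140616 against whole cell extract at p under 0.001, with down-sampling. The deposited columns are the pileup (a coverage signal), the fold enrichment (a ratio over the local background), and each peak's p-value and q-value, both as −log10. The header of the Setdb1 depleted list names a non-silencing hairpin where the labels give one against Setdb1. The labels were followed, so for that list the hairpin is uncertain. The depth of the histone libraries is not given in the sources used here. The lists hold 0 columns for single libraries.

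From these lists, with Python 3.11.15, pandas 2.3.3 and pysam 0.24.0, each gene's GENCODE M21 start was placed inside or outside peaks, and the covered share was taken over the gene and 50 kb on each side. Touching peaks were kept apart unless said otherwise. Setdb1 peaks were counted within 20 kb of the gene. Interval functions were checked on simulated intervals. No test between kinds of cells was made, because each has 1 pooled list. Counts over the gene lists were set beside the share of all autosomal protein-coding genes under the same rule. The members and gene lists were chosen with earlier results of these data known. By rule, the text names all 10 members, up to 12 genes of the wider list with the widest female peaks and those whose state differs between female and Setdb1 depleted cells, genes sharing a member's female peak, and the 2 most alike genes per member covered in a female list. The alternatives are other definitions of a held start, other windows, wider or equally many peaks, closed gaps and stricter Setdb1 thresholds.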

Additional observations from a re-analysis of the deposited data

How the results depend on the processing

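The 21 counts and covered shares and the 16 peak widths were recomputed under each alternative. Of 127 values, 115 stayed within 1.5 times a count or width, or within the exact binomial 95% interval of a share over 5 kb steps. That interval treats neighbouring steps as independent and is therefore too narrow. Many of the 115 could not have moved, since a count or share of 0 stays at 0 when an alternative only removes peaks or shrinks the window. The tally is therefore not a measure of how stable the results are. The H3K27me3 counts of 5, 6 and 5 genes ranged from 4 to 6 over 6 alternatives, and the 4 came from asking for at least 50% of the gene body, which drops the long gene Esrrb. Over all 10 windows together H3K27me3 covered 38.0%, 31.9% and 33.9% in the female, Setdb1 depleted and male lists. With 100 kb on each side it was 28.6% in female cells, and with 25 kb on each side 38.2% in Setdb1 depleted and 40.9% in male cells. The H3K9me3 share, 0.808% in female and in male cells, fell to 0% in both with peaks of at least 20 kb and with equal numbers of the widest peaks. In Setdb1 depleted cells it moved from 0% to 2.07% with 100 kb on each side. Counting a peak within 5 kb of the start made 1 gene (Zfp42) near H3K9me3 in female cells. Joining touching peaks, an alternative chosen after seeing the data, widened the female peak at Pou5f1 from 145 to 265 kb, at Esrrb from 50 to 80 kb and at Prdm14 from 35 to 55 kb, and with it the start peaks of these 3 genes are narrower in Setdb1 depleted than in female cells. In each of these, the cause was not tested beyond the construction of the alternative.

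No paired analysis was possible because the lists pool the libraries of a group, and for the same reason leaving out a replicate was not possible. The Setdb1 depleted lists rest on 2 libraries per target and the others on 3, and edges come in steps of 5 kb, so differences of 1 step carry little weight. A gene outside the peaks is not shown to lack the mark, since the lists hold no signal below the threshold.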
